A study of Mus musculus with 14 samples.

Results

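RNA of 3 samples of FDCPmix cells from the Kit-Gr1- gate was compared with RNA of 3 samples from the Kit+Gr1-Sca1lo gate, across every gene on the array. FDCPmix is a mouse blood progenitor line derived from bone marrow that depends on interleukin-3 and keeps the ability to form several blood lineages. The 6 samples were taken by their titles and gates, out of 14 in the study; the others were Kit+Gr1-Sca1hi (3), Gr1+ (3) and unfractionated cells (2) of the same line. Both groups came from the same maintenance culture in medium with horse serum and interleukin-3 conditioned supernatant, were stained with antibodies and were separated on a cell sorter, per the labels' protocols. Neither group carried a transgene or received a drug according to the labels, which give no passage, clone or strain. The series' design text calls the replicates biological. A sorted fraction of a single line is a limited model: the labels state no purity of the sort, and in such samples fewer cells of a type and less RNA per cell cannot be told apart. The Sca1lo cells are written without their Kit+Gr1- prefix from here on.

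Kit is the receptor for stem cell factor, and progenitors lose it from their surface as they mature. In the erythroid lineage the transcription factors GATA1 and KLF1 switch on the erythropoietin receptor, the globins, the enzymes of haem synthesis and the proteins of the red cell membrane and its skeleton. The megakaryocyte lineage, which forms platelets, and the mast cell and basophil lineages also use GATA factors, so genes of all these lineages were followed side by side.

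Levels are log2 of the processed fluorescence minus the 75th percentile of the same array, so 0 is the 75th percentile and 1 unit is a 2-fold step. Differences are Kit-Gr1- minus Sca1lo, with the standard error from limma after ±. A gene rose or fell when its Benjamini-Hochberg adjusted p over all 28583 genes tested was under 0.05 and its change was at least 2-fold. Differences that no test backs are given as values.

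On the 6 arrays between 81.3% and 90.7% of spots were well above background, and none was saturated. The median signal ran from 132 to 330 scanner units. Replicate 3 of the Sca1lo cells stood apart, with the highest median signal and a log2 interquartile range of 3.42 against 4.24 to 4.84 on the other 5 arrays. Slide 1 held replicate 1 of both groups and slide 2 held replicate 2 of both, while replicate 3 of the Kit-Gr1- and of the Sca1lo cells lay on different slides (3 and 4). The median difference over all genes was -0.22, and it was 0.04 when each array was scaled to its own median. The list medians below are not corrected for this and are to be read against -0.22, or against 0.04 where array medians are the scale.

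Of 28583 genes, 128 passed (0.448%), 105 of them higher in Kit-Gr1- cells (0.367%) and 23 lower (0.0805%). In the same limma fit 3089 of the 28583 genes had an unadjusted p under 0.05. The counts in the gene lists below are to be read against these counts over all genes. Genes with a symbol made up 89 of the higher and 16 of the lower ones. With array medians as the scale the split was 120 higher and 7 lower. A wider count, without a test, took genes whose 3 Kit-Gr1- arrays all lay on one side of the 3 Sca1lo arrays with means at least 2-fold apart. There were 194 such genes higher (0.679%) and 404 lower (1.41%), so 32.4% were higher, a share that was 70% with array medians, 77.1% after quantile normalization and 82.9% after normexp background correction. Which direction prevails in that wider count thus differed with the scaling. Among the genes that passed, 82% were higher, and the share ran from 71.3% (deposited values without scaling) to 94.5% (array medians) over the 4 alternatives of scaling and background. The calls depend on the spread over few arrays. Without Sca1lo replicate 3 the number that passed was 26, without Kit-Gr1- replicate 3 it was 25 and without Kit-Gr1- replicate 1 it was 237. A fit of all 14 arrays, which pools their wider spread, passed 0 genes (373 at an unadjusted p under 0.05), and a variance prior without a trend passed 4. Among the 14, unfractionated replicate 1 had a median signal of 5180 scanner units, against 122 to 801 on the other arrays. Its log2 interquartile range was 1.78, and its part in that fit was not tested. With the slide as a block 281 genes passed as a fixed effect and 196 as a random one. All 128 genes kept their sign in each of the 19 alternatives that tested them (126 of them in the strictest filter on dim probes), which the choice of genes on the same arrays largely fixes. In each of the 6 fits that left out 1 array, 16 genes passed, and 13 of them have a symbol: Hba-a1, Slc6a4, Klf1, Kel, Epor, Mrvi1, Tpm4, Gata1, Cela1, Hpn and Phlda3 among the higher and Kit and Deptor among the lower.

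**Figure D1:**
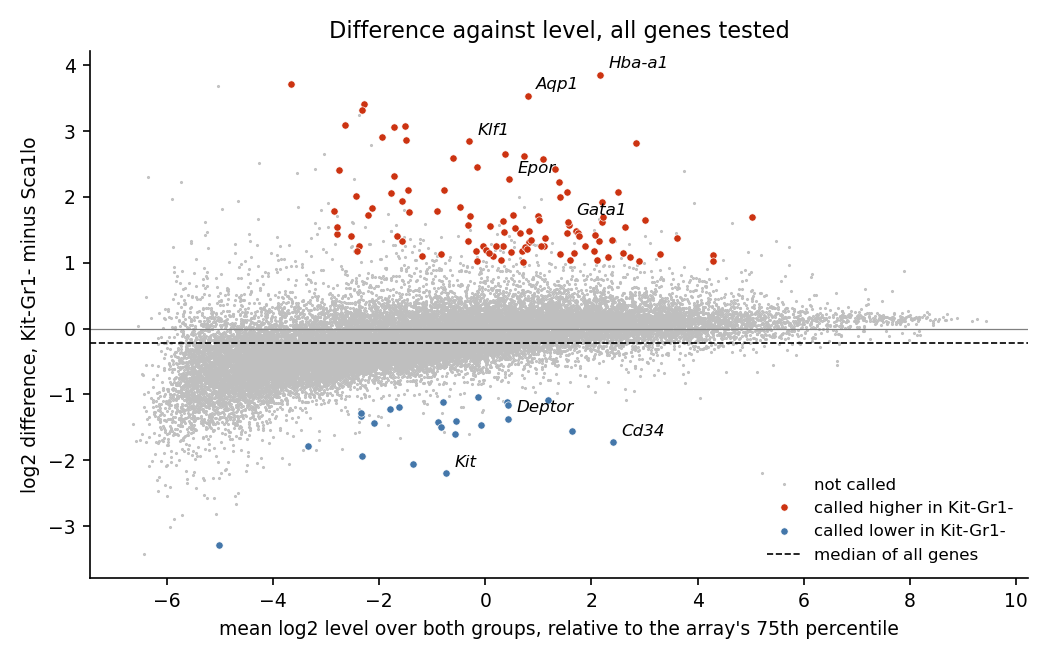
Difference against mean level for the 28583 genes tested, each point 1 gene, with both axes on the log2 scale and the level relative to the array's 75th percentile. Red points are the 105 genes called higher in Kit-Gr1- cells and blue points the 23 called lower; Hba-a1 stands highest at 3.86, Kit lies at -2.20, and the dashed line marks the median of all genes at -0.22.

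Of the 4 genes used to recognise an erythroid step, 3 were higher and Kit was lower in Kit-Gr1- cells. Hba-a1, which encodes alpha globin, measured 0.40, 0.30 and -0.01 in the Sca1lo samples and 4.48, 3.54 and 4.23 in the Kit-Gr1- samples. Aqp1, the water channel of the red cell membrane, measured -0.20, -1.38 and -1.34 against 3.19, 1.92 and 2.58. Epor, the erythropoietin receptor, measured -0.52, -0.83 and -0.70 against 1.90, 1.10 and 1.78. For these 3 genes every Kit-Gr1- sample lay above every Sca1lo sample. Kit ran the other way, with 0.56, 0.35 and 0.18 in Sca1lo cells and -1.61, -1.84 and -2.04 in Kit-Gr1- cells, again without overlap and in the direction of the gate. Other genes known from red cells did not pass. Alas2, the erythroid form of the first haem synthesis enzyme, differed by 0.01 ± 0.31. Slc4a1, the anion exchanger called band 3, differed by -0.28 ± 0.23. Neither passed, and in both the groups overlapped. Of 12 genes of late red cell maturation tested with limma 0 passed, with a median of 0.19 and 9 of the 12 above 0. At an unadjusted p under 0.05 there were 4 of the 12, against 3089 of all 28583 genes.

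The regions before 4 of the genes that rose most are shown because the erythroid factors named above are known to bind GATA and CACCC letters. They are the 250 bases upstream of the gene start on GRCm38.p6, from RefSeq, 5′ to 3′ on the gene's strand, with matches to a GATA motif (GATA with A or T before it and A or G after it) or a CACCC box (CCNCACCC), on either strand, in capitals. Hba-a1 lies at chr11:32283422-32283671 on the plus strand, Klf1 at chr8:84901732-84901981 on the plus strand, Kel at chr6:41704326-41704575 on the minus strand and Aqp1 at chr6:55336049-55336298 on the plus strand.
Hba-a1: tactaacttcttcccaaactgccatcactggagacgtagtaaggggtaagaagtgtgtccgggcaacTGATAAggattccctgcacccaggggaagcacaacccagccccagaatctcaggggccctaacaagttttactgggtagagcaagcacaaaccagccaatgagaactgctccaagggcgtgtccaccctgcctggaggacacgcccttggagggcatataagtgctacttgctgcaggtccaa
Klf1: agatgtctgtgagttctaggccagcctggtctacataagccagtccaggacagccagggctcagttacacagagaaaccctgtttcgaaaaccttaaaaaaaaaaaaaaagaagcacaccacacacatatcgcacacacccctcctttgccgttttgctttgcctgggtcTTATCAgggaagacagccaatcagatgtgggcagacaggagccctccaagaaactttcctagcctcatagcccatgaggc
Kel: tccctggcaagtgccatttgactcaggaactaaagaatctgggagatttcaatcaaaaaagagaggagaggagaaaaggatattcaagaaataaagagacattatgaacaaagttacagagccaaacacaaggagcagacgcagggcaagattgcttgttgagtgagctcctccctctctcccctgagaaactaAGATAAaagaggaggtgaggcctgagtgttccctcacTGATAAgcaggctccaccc
Aqp1: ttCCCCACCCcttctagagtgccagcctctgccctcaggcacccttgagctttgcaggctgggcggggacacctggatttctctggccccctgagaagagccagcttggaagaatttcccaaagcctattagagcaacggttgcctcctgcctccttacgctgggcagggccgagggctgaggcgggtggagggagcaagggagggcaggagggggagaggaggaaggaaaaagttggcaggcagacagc
Hba-a1 holds TGATAA with its first base at -183 from the gene start. Klf1 holds TTATCA (the reverse complement of TGATAA) at -80, and Kel holds AGATAA at -56 and TGATAA at -19. Aqp1 holds no GATA match in this window and has the CACCC box CCCCACCC at -248. Of the 10 largest increases among genes with a symbol, 6 held a GATA match (60%) in the window from 250 bases before to 50 after the start, and 1 held a CACCC box (10%). Over all 27025 genes with such a window the shares were 33% and 18.4%, and over the 12455 tested genes with a symbol and a window they were 27.1% and 22%. The 75 genes called higher that have a window gave 44% and 25.3%. Of the 10 largest decreases 7 have one, and 1 of these held a GATA match (14.3%) and 3 a CACCC box (42.9%). These are matches of letters, not measured binding.

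Among erythroid regulators, Klf1 and Gata1 rose while most of their partners did not pass. Klf1 measured -1.34, -1.89 and -1.95 in Sca1lo cells against 1.49, 0.68 and 1.18 in Kit-Gr1- cells, a rise of 2.84 ± 0.24 (7.18-fold, adjusted p = 0.000973). Gata1 measured 0.75, 0.79 and 0.67 against 2.53, 2.06 and 2.49, a rise of 1.63 ± 0.15 (3.08-fold, adjusted p = 0.00217). The Sca1lo samples lay close together for Gata1, and the groups overlapped for neither gene. Zfpm1, the GATA1 cofactor FOG1, came next with 1.12 ± 0.23 and did not pass (adjusted p = 0.0745), although its samples did not overlap. Gfi1b, a transcriptional repressor that acts within the erythroid and megakaryocyte lineages, measured 0.67 ± 0.13. Tal1, which binds with GATA1, measured 0.72 ± 0.17, and Nfe2, a factor of globin and platelet genes, 0.22 ± 0.17. None of these 3 passed. Of 16 erythroid transcription factors tested, 2 rose, 0 fell and 14 did not pass, with a median of 0.34. For Bcl11a, among the 14, the probes disagreed: the one used gave 0.33 and a second gave 4.26. Within slides 1 and 2 the list's medians were 0.41 and 0.28.

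Epor rose by 2.27 ± 0.21 (4.83-fold, adjusted p = 0.00186), with 2.42 within slide 1 and 1.92 within slide 2. Of 14 genes of erythropoietin receptor signalling tested, Epor alone rose and 13 did not pass, and the list median was 0.07. Jak2, the kinase that the receptor activates, measured 0.73 ± 0.21, and the transcription factor genes Stat5a and Stat5b measured -0.01 ± 0.18 and 0.06 ± 0.15. The target genes Cish and Socs2 measured 0.22 ± 0.17 and 0.14 ± 0.14, and none of these 5 passed. Klf1, Gata1 and Epor passed in each of the 6 fits with 1 array left out, at adjusted p = 0.0366 at most.

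Among globin genes Hba-a1 and Hbb-y rose, while Hbb-bt was already high in Sca1lo cells. Hba-a1 rose by 3.86 ± 0.23 (14.5-fold, adjusted p = 0.000126), with 4.09 and 3.24 within slides 1 and 2. Its probe may also detect RNA of the near-identical copy Hba-a2, so the value stands for alpha globin RNA. Hbb-y, the embryonic epsilon-type beta globin, measured -0.83, -1.46 and -1.12 in Sca1lo cells against 0.89, 0.00 and 0.82, without overlap. It rose by 1.71 ± 0.25 (3.27-fold, adjusted p = 0.0192). Hbb-bt, an adult beta globin, was already high in Sca1lo cells at 7.75, 7.46 and 7.15 against 8.30, 8.15 and 8.51. Its difference of 0.87 ± 0.19 did not pass (adjusted p = 0.107), though the groups did not overlap. Of 7 globin genes tested, 2 rose and 5 did not pass, with a median of 0.87. By the wider count without a test, 3 of the 7 were at least 2-fold higher without overlap, Hba-a1 and Hbb-y among them. Over all genes tested that share was 0.679%.

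In haem synthesis, a late enzyme and a mitochondrial transporter rose. Cpox, which oxidises coproporphyrinogen, measured 0.46, 0.63 and 0.36 against 2.12, 1.57 and 1.55 and rose by 1.26 ± 0.18 (2.40-fold, adjusted p = 0.017). Abcb10, a transporter of the inner mitochondrial membrane needed in erythroid cells, measured -0.84, -0.58 and -0.59 against 0.58, -0.01 and 0.52 and rose by 1.03 ± 0.19 (adjusted p = 0.0438), with 1.42 within slide 1 and 0.57 within slide 2. Alad, the second enzyme of the pathway, measured 0.90 ± 0.20, and Fech, which inserts the iron, 0.72 ± 0.20. Neither passed, and in both the groups did not overlap. Of 18 haem genes tested, 2 rose and 16 did not pass, with a median of 0.49 and 15 of the 18 above 0. The 12 genes of iron uptake and storage had a median of 0.16, and 0 passed limma's test (4 at an unadjusted p under 0.05); the largest value was 0.71 ± 0.14 for the iron importer Slc11a2 (adjusted p = 0.066). Without Sca1lo replicate 3, Hbb-y, Cpox and Abcb10 did not pass (adjusted p = 0.142 to 0.212), nor did they without Kit-Gr1- replicate 3 (0.0821 to 0.222), while Hba-a1 passed in both. Abcb10 also ended without Sca1lo replicate 1 (0.112), Sca1lo replicate 2 (0.0533) and, on its fold, Kit-Gr1- replicate 1, and with the slide as a fixed block (0.103).

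**Figure D2:**
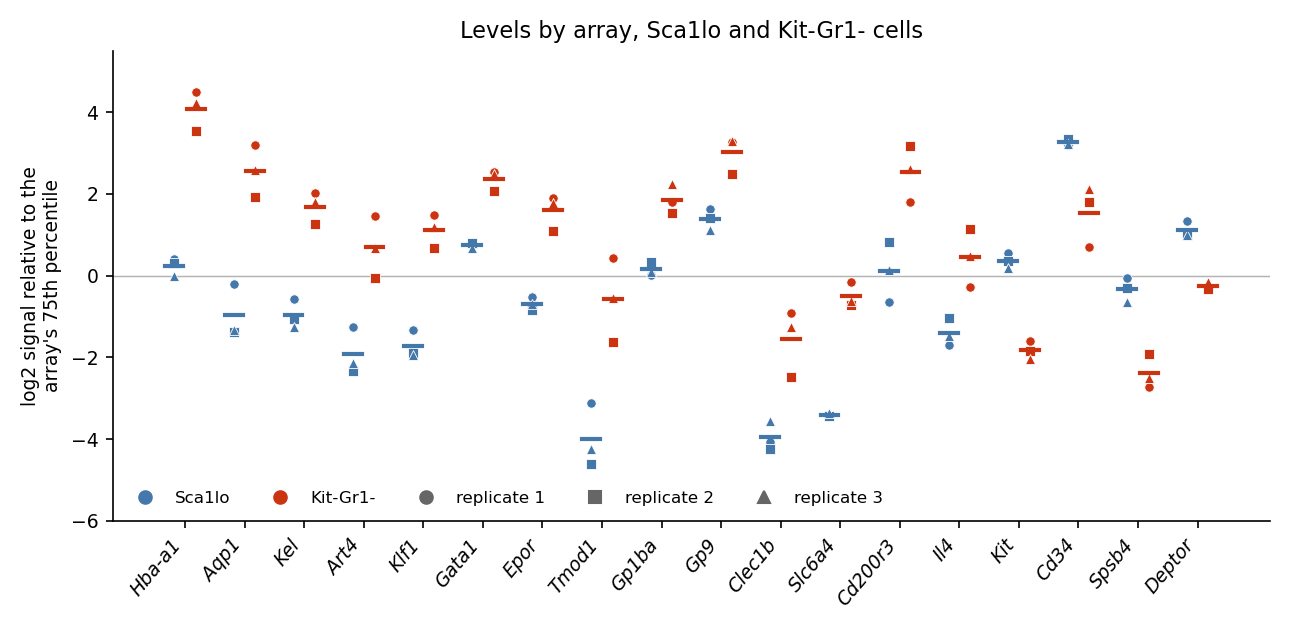
Log2 level relative to the array's 75th percentile (vertical axis) of 18 genes (horizontal axis), with each symbol 1 array, its shape the replicate number, and the bar the group mean of 3. Red Kit-Gr1- symbols lie above the blue Sca1lo ones without overlap for the first 14 genes, from Hba-a1 to Il4, and below them for Kit, Cd34, Spsb4 and Deptor.

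Among red cell membrane genes, Aqp1, Kel and Art4 rose. Aqp1 rose by 3.54 ± 0.36 (11.6-fold, adjusted p = 0.00337), with 3.39 and 3.30 within slides 1 and 2. Kel, the Kell blood group protein, measured -0.57, -1.06 and -1.25 against 2.01, 1.25 and 1.81, and it rose by 2.65 ± 0.23 (6.28-fold, adjusted p = 0.00128). Art4, the Dombrock blood group protein, measured -1.25, -2.34 and -2.13 against 1.46, -0.07 and 0.68, and it rose by 2.60 ± 0.38 (6.05-fold, adjusted p = 0.0184). In all 3 genes replicate 1 was the highest sample of each group. Of 18 membrane transporters and blood group genes tested, these 3 rose and 15 did not pass, with a median of 0.64. Car2, a carbonic anhydrase, measured 1.40 ± 0.28 and Rhag, the Rh-associated glycoprotein, 1.16 ± 0.28, without overlap and without passing. Gypc, glycophorin C, had an adjusted p of 0.045 but a difference of 0.86 ± 0.16, under 2-fold. Xk, the partner of the Kell protein, measured -0.33 ± 0.22 and did not pass.

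Of 12 genes of the red cell membrane skeleton tested, 4 rose and 8 did not pass, and the median was 0.09. Tmod1, which caps the actin filaments of the skeleton, measured -3.12, -4.60 and -4.25 against 0.42, -1.62 and -0.55, a rise of 3.41 ± 0.50 (10.6-fold, adjusted p = 0.019). Add2, beta adducin, rose by 2.01 ± 0.32, and Stom, stomatin, by 1.32 ± 0.22 (adjusted p = 0.0296 and 0.0371). Other skeleton genes did not pass: Sptb, the beta chain of spectrin, measured 0.10 ± 0.36, Ank1, which ties spectrin to band 3, -0.23 ± 0.21, and Epb42, protein 4.2, -0.00 ± 0.33. The probes of these 3 genes spread, from -0.67 to 0.10 for Sptb, from -0.93 to -0.23 for Ank1 and from -0.00 to 1.70 for Epb42. Without Kit-Gr1- replicate 3 the calls of Aqp1, Art4, Tmod1, Add2 and Stom ended (adjusted p = 0.0532 for Aqp1 to 0.201), and without Sca1lo replicate 3 those of Art4, Tmod1 and Stom did (0.17 to 0.219). Add2 and Stom also ended without Sca1lo replicate 1, at 0.0538 and 0.0737, and Stom with the slide as a fixed block (0.147). Kel passed in each of the 6 fits with 1 array left out. It did not pass without a trend in the variance prior or with all 14 arrays in the fit.

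The other genes among the 10 largest increases with a symbol were not on the lists. Slc6a4, the serotonin transporter, measured -3.41, -3.44 and -3.36 against -0.15, -0.73 and -0.61 and rose by 2.91 ± 0.20 (7.50-fold, adjusted p = 0.000365). Its Sca1lo samples lay close together and its groups did not overlap. Clca3a1, of a family of chloride channel regulators, rose by 3.71 ± 0.47, but its Sca1lo signal was well above background on 1 array of 3, so the size of the rise is uncertain, and it was not tested when probes had to be well above background on all 6 arrays. Akr1c18, an aldo-keto reductase that inactivates progesterone, rose by 2.86 ± 0.30. Tspan33, a tetraspanin of red cell precursors, rose by 3.32 ± 0.44 and Grap2, an adaptor of T cell receptor signalling, by 3.10 ± 0.44. For Tspan33 and Grap2 the probes disagreed: a second probe of each gave -0.05 and -0.04. Without Kit-Gr1- replicate 3 all but Slc6a4 of these 5 did not pass (adjusted p = 0.0559 to 0.151), and without Sca1lo replicate 3 neither did Clca3a1 and Grap2 (0.066 and 0.137).

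Of the platelet genes, 5 were higher in Kit-Gr1- cells by the test. Gp1ba, Gp9 and Gp5 encode 3 subunits of the platelet receptor for von Willebrand factor. Gp1ba measured 0.01, 0.34 and 0.10 against 1.79, 1.53 and 2.25, Gp9 1.64, 1.42 and 1.12 against 3.26, 2.48 and 3.30, and Gp5 1.38, 0.94 and 0.76 against 2.80, 1.98 and 2.64. They rose by 1.71 ± 0.19, 1.62 ± 0.22 and 1.45 ± 0.23 (adjusted p = 0.0056, 0.017 and 0.0267), and no sample overlapped. The fourth subunit gene, Gp1bb, measured 0.42 ± 0.29 and did not pass. Mrvi1, which restrains calcium release in platelets, rose by 1.99 ± 0.20 (3.98-fold, adjusted p = 0.00315), with 1.20 by its other probe. Clec1b, the podoplanin receptor CLEC-2, measured -4.08, -4.25 and -3.55 against -0.91, -2.47 and -1.26 and rose by 2.41 ± 0.38 (adjusted p = 0.0288).

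Of 19 megakaryocyte and platelet genes tested, 5 rose, 0 fell and 14 did not pass, with a median of 0.79 overall and 1.07 and 0.59 within slides 1 and 2. Vwf, von Willebrand factor, measured 1.96 ± 0.38 and Pf4, platelet factor 4, 1.60 ± 0.35, without overlap and without passing. Itga2b, an early marker of the lineage, measured 0.67 ± 0.15 and did not pass. The summed linear signal of the 19 genes, in multiples of the array's 75th percentile, was 46.3 to 62.3 in Sca1lo and 84.8 to 147 in Kit-Gr1- cells. Without Sca1lo replicate 3 only Mrvi1 of the 5 passed (the others at adjusted p = 0.067 to 0.198), and without Kit-Gr1- replicate 3 Gp9, Gp5 and Clec1b did not (0.127 to 0.2).

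Mast cell and basophil genes made up the list with the highest median, 1.03, with 0.84 and 0.88 within slides 1 and 2. Of 18 tested, 4 rose and 14 did not pass. Cd200r3, an activating receptor of these cells, measured -0.65, 0.83 and 0.13 against 1.80, 3.18 and 2.61 and rose by 2.43 ± 0.39 (5.38-fold, adjusted p = 0.0294). Il4, the cytokine interleukin-4, measured -1.69, -1.04 and -1.47 against -0.29, 1.15 and 0.47 and rose by 1.84 ± 0.32. Mcpt2, a mast cell protease, rose by 1.41 ± 0.23 and Ms4a2, the beta chain of the IgE receptor, by 1.26 ± 0.22. The basophil protease Mcpt8 was highest in replicate 2 of both groups and did not overlap between them. Its difference of 2.39 ± 0.52 did not pass (adjusted p = 0.0929). Mcpt1, Mcpt4 and Tpsb2, proteases of mature mast cells, measured -0.06, -0.05 and -0.29 and did not pass. The summed signal of the list was 355 to 497 in Sca1lo, 494 to 874 in Kit-Gr1- and 580 to 1020 in Gr1+ cells.

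Ccl3, a chemokine listed with monocyte genes and also made by mast cells, rose by 2.22 ± 0.39 (adjusted p = 0.0386), and 9 other monocyte and macrophage genes did not pass. Among these 9, Ccr2 had a larger difference of 2.79 ± 0.82 without overlap (adjusted p = 0.264). The median of the 10 genes was 0.09, and 4 of them lay below 0. The summed signal of this list was 6.53 to 20.6 in Sca1lo, 14.3 to 51.4 in Kit-Gr1- and 227 to 395 in Gr1+ cells. The calls of Cd200r3, Il4, Mcpt2, Ms4a2 and Ccl3 ended without Sca1lo replicate 3 (adjusted p = 0.135 to 0.237), without Kit-Gr1- replicate 3 (0.108 to 0.226) and without Kit-Gr1- replicate 2 (0.0557 to 0.0884). Those of Il4, Mcpt2 and Ms4a2 also ended without Sca1lo replicate 1 (0.0568 to 0.0794). After quantile normalization the calls of Cd200r3, Il4, Mcpt2, Ms4a2 and Ccl3 all ended. The part of megakaryocytes, mast cells, basophils or monocytes in the other rises was not tested.

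None of the listed granulocyte genes passed, and the levels of some of them varied by replicate in both groups alike. S100a8, a calcium-binding protein of neutrophils, measured -7.98, 0.88 and -0.54 in Sca1lo cells and -8.36, 1.48 and 0.26 in Kit-Gr1- cells. Replicate 1 was thus low in both groups. Prg2, the major basic protein of eosinophils, measured -2.96, 1.06 and -1.04 against -3.18, 1.16 and -0.48. Of 11 secondary granule and neutrophil genes and 8 eosinophil genes tested with limma, 0 passed (0 and 2 at an unadjusted p under 0.05), and the medians were -0.04 and -0.41. The neutrophil median was 0.22 with array medians as the scale. It was -0.21 within slide 1, 0.76 within slide 2 and 0.52 without Sca1lo replicate 3, so no direction is given for this list. The summed signals were 1.14 to 21.4 against 1.19 to 35.9 for neutrophil genes (581 to 1247 in Gr1+ cells) and 1.41 to 4.08 against 1.26 to 3.89 for 7 eosinophil genes (107 to 276 in Gr1+ cells). Camp, Lcn2 and S100a8 had a signal near background on some arrays of the 2 groups.

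Primary granule genes, which mark early granulocyte precursors, had a median of -0.45, and 0 of 10 passed limma's test (5 at an unadjusted p under 0.05). Mpo, myeloperoxidase, measured 5.57, 7.40 and 5.95 against 2.31, 5.20 and 4.81, and Prtn3, proteinase 3, 0.36, 1.05 and 0.31 against -1.35, -0.36 and -0.37. Both were lower in every Kit-Gr1- sample, by 2.20 ± 0.68 and 1.27 ± 0.29 in log2 units, without passing (adjusted p = 0.297 and 0.109). Elane, neutrophil elastase, measured -0.90 ± 0.37, while Ctsg, cathepsin G, and the lysozyme gene Lyz2 measured 0.02 ± 0.38 and 0.01 ± 0.31. The summed signal was 189 to 445 in Sca1lo and 124 to 340 in Kit-Gr1- cells. Spi1, which encodes the myeloid factor PU.1, measured -0.22 ± 0.24 and with array medians 0.03. Cebpa, a granulocyte factor, measured -0.20 ± 0.34 and with array medians 0.05, so no direction is given for either. The 10 lymphoid genes had a median of -0.68, which was -0.20 and -0.12 within slides 1 and 2, and 0 passed limma's test (2 at an unadjusted p under 0.05).

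**Figure D3:**
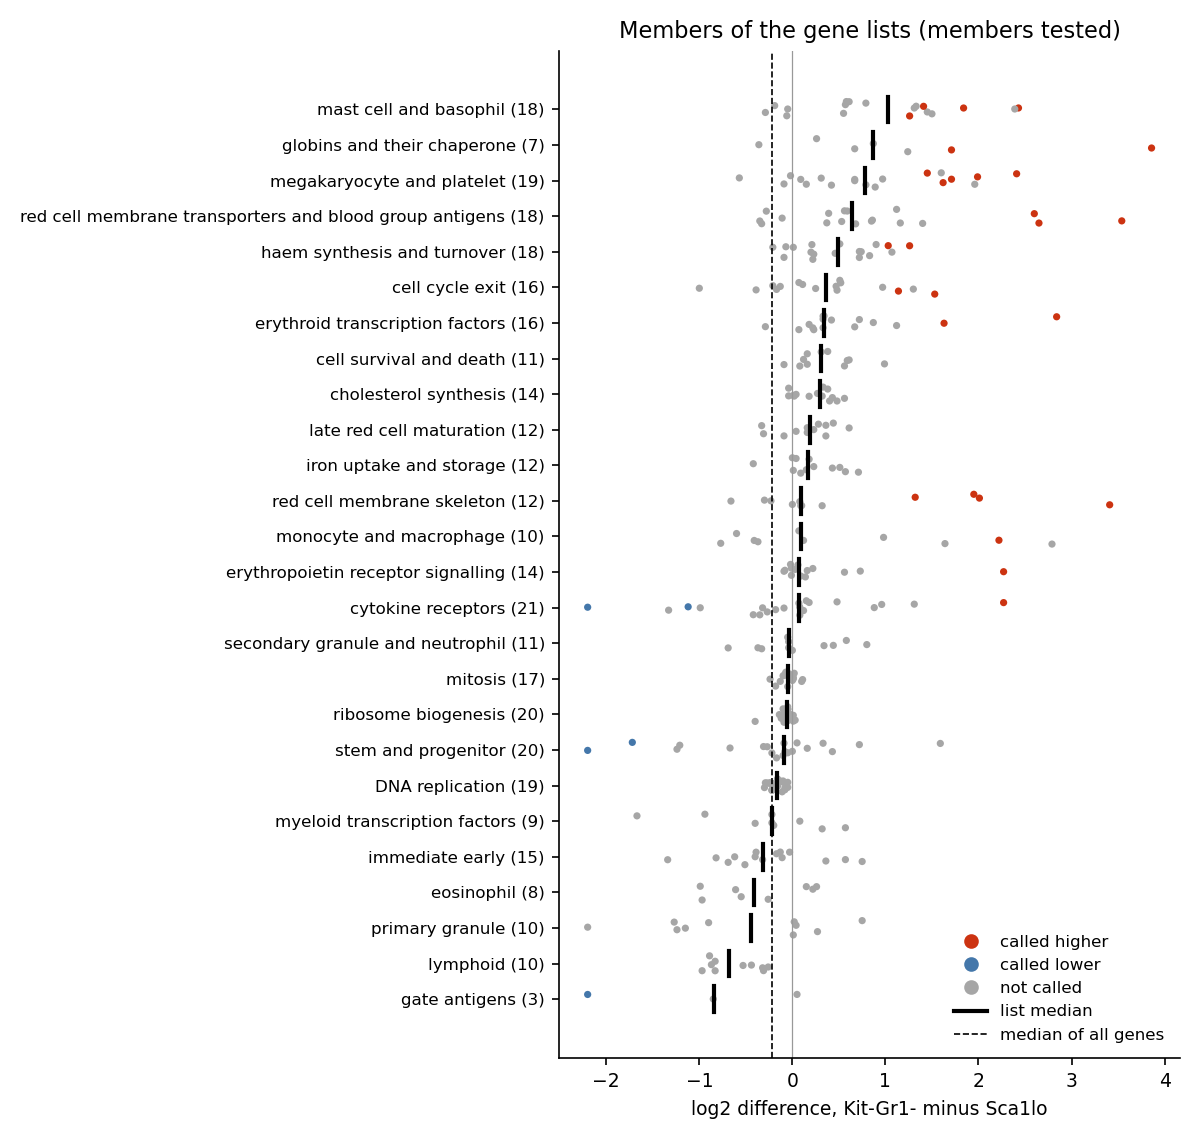
Log2 difference of each member of the 26 gene lists (horizontal axis, Kit-Gr1- minus Sca1lo), with the number of members tested beside each list name, sorted by median. Red and blue points passed, grey did not, the black bar is the list median and the dashed line the median of all genes; mast cell and basophil genes (1.03), globins (0.87) and platelet genes (0.79) have the highest medians, and the 3 gate antigens (-0.85) and lymphoid genes (-0.68) the lowest.

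Few progenitor genes fell. Kit fell by 2.20 ± 0.18 in log2 units (4.59-fold, adjusted p = 0.000973), with -2.17 and -2.19 within slides 1 and 2. Cd34, a surface sialomucin of progenitors, measured 3.20, 3.35 and 3.23 in Sca1lo cells against 0.70, 1.79 and 2.12, and it fell by 1.72 ± 0.30 (3.30-fold, adjusted p = 0.0379). Its Sca1lo samples were tight and its Kit-Gr1- samples spread. Of 20 stem and progenitor genes tested, these 2 fell, 0 rose and 18 did not pass, with a median of -0.09 that was 0.16 with array medians. By the wider count without a test, 3 were at least 2-fold lower and 1 at least 2-fold higher without overlap. Over all genes tested the shares were 1.41% lower and 0.679% higher. The largest positive difference in the list was 1.59, which did not pass. Gata2, the factor that precedes Gata1, measured 3.62, 4.31 and 4.12 against 4.22, 5.09 and 4.90, with overlap, a difference of 0.72 ± 0.24 that did not pass. Myb, needed for progenitor growth, measured -0.17 ± 0.15 and 0.08 with array medians. Ly6a, which encodes Sca1, measured -2.96, -2.38 and -2.40 against -3.21, -2.25 and -2.12, a difference of 0.05 ± 0.32 whose sign turned under 5 alternatives. Ly6c1, part of the Gr1 antigen, measured -0.85 ± 0.76 and did not pass; its samples overlapped.

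Among 21 cytokine receptor genes tested, Epor rose, Kit and Tnfrsf1a fell, and 18 did not pass. Tnfrsf1a, the main receptor for tumour necrosis factor, measured 0.89, 1.04 and 0.96 against -0.28, -0.31 and 0.14 and fell by 1.12 ± 0.16 (adjusted p = 0.0179). The genes of receptor chains for interleukin-3, on which the line depends, did not pass: Il3ra measured 0.12 ± 0.14 and Csf2rb -0.18 ± 0.16. Csf3r, the granulocyte growth factor receptor, measured -1.33 ± 0.44 without overlap and did not pass.

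Other large decreases among genes with a symbol were of varied function, and transcripts without a symbol were not ranked with them. Spsb4, an adaptor of a ubiquitin ligase, measured -0.07, -0.30 and -0.65 against -2.73, -1.92 and -2.51 and fell by 2.05 ± 0.24 (4.14-fold, adjusted p = 0.00769). Col4a2, a collagen of basement membranes, fell by 1.93 ± 0.23, or by 0.96 by its other probe. Pdlim1, an actin-associated LIM protein, fell by 1.56 ± 0.20, Mdfi, an inhibitor of myogenic factors, by 1.61 ± 0.30, and Thsd1, a thrombospondin-type transmembrane protein, by 1.50 ± 0.22. Scarf1, a scavenger receptor, fell by 1.47 ± 0.26, Pdgfrb, a receptor for platelet-derived growth factor, by 1.43 ± 0.24, and Khdc1a, a KH domain protein, by 1.41 ± 0.24. Without Kit-Gr1- replicate 3 the calls of Cd34, Spsb4, Col4a2, Pdlim1, Thsd1, Scarf1, Pdgfrb and Khdc1a ended (adjusted p = 0.0584 to 0.222), and without Sca1lo replicate 3 those of Cd34, Tnfrsf1a, Col4a2, Mdfi, Thsd1, Scarf1, Pdgfrb and Khdc1a (0.0573 to 0.287). Without Kit-Gr1- replicate 2 those of Cd34, Tnfrsf1a, Mdfi, Scarf1 and Pdgfrb ended (0.0557 to 0.127), without Sca1lo replicate 1 those of Cd34, Mdfi, Scarf1 and Khdc1a (0.0514 to 0.0706), and without Sca1lo replicate 2 those of Mdfi and Pdgfrb (0.0533 and 0.0641). With array medians as the scale Cd34, Tnfrsf1a, Mdfi, Pdlim1, Thsd1, Scarf1 and Khdc1a did not pass.

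No gene of DNA replication, mitosis or ribosome biogenesis passed, while 2 regulators of cycle exit rose. Cdkn2b, the kinase inhibitor p15, measured -0.40, 0.28 and -0.47 against 0.82, 1.91 and 1.28 and rose by 1.53 ± 0.28 (2.90-fold, adjusted p = 0.0446). Rb1, the retinoblastoma protein, measured 1.21, 1.19 and 0.90 against 2.40, 2.08 and 2.25 and rose by 1.14 ± 0.15 (adjusted p = 0.0115), while its other probe gave -0.14. Of 16 genes of cell cycle exit tested, these 2 rose and 14 did not pass, with a median of 0.36. Gadd45a, a growth arrest gene, had an adjusted p of 0.0379 but a difference of 0.97 ± 0.17, under 2-fold. Of 19 DNA replication, 17 mitosis and 20 ribosome biogenesis genes tested with limma 0 passed (1, 0 and 1 at an unadjusted p under 0.05), with medians of -0.16, -0.05 and -0.05, which were 0.09, 0.21 and 0.20 with array medians. Genes of cell survival (11), immediate early genes (15) and cholesterol synthesis genes (14) had medians of 0.31, -0.32 and 0.30, and 0 passed (4, 2 and 4 at an unadjusted p under 0.05). Without Sca1lo replicate 3 and without Kit-Gr1- replicate 3 neither Cdkn2b nor Rb1 passed (adjusted p = 0.0889 and 0.285, then 0.0843 and 0.233, Rb1 first), and Cdkn2b also ended without Sca1lo replicate 1 (0.0852) and Kit-Gr1- replicate 2 (0.108), and with array medians as the scale.

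The other sorted fractions place these levels, as a description. Aqp1 measured -3.07, -3.42 and -3.58 in Sca1hi cells and -3.10, -5.12 and -4.10 in Gr1+ cells, below every Sca1lo sample. Kel likewise measured -2.55, -2.28 and -3.02 in Sca1hi cells against -0.57 to -1.25 in Sca1lo cells. Hba-a1 did not show that order: Sca1hi cells, at -0.05, 0.66 and -0.20, overlapped Sca1lo cells. Among the sorted fractions Kit was lowest in Kit-Gr1- cells, since Gr1+ cells measured 0.43, 0.97 and 0.61. Cd200r3 measured 4.32, 3.86 and 3.22 in Gr1+ cells and Il4 2.28, 1.91 and 1.06, so their highest levels were not in the Kit-Gr1- cells. Every Gr1+ sample lay above every Kit-Gr1- sample for Akr1c18 (3.49, 2.25 and 1.82 in Gr1+ cells), Stom (1.96, 2.97 and 2.54) and Ccl3 (5.53, 4.91 and 3.48). Slc6a4 measured -0.56, -0.77 and -1.05 in Gr1+ cells and overlapped Kit-Gr1- cells. For Hba-a1, Kel, Klf1, Epor and Tmod1 every Gr1+ sample lay below every Kit-Gr1- sample. Sca1hi replicate 3 and Gr1+ replicate 3 had narrow log2 interquartile ranges of 2.37 and 3.04, and Klf1 in Sca1hi cells (-3.49, -3.53 and 0.71) was high in that replicate.

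**Figure D4:**
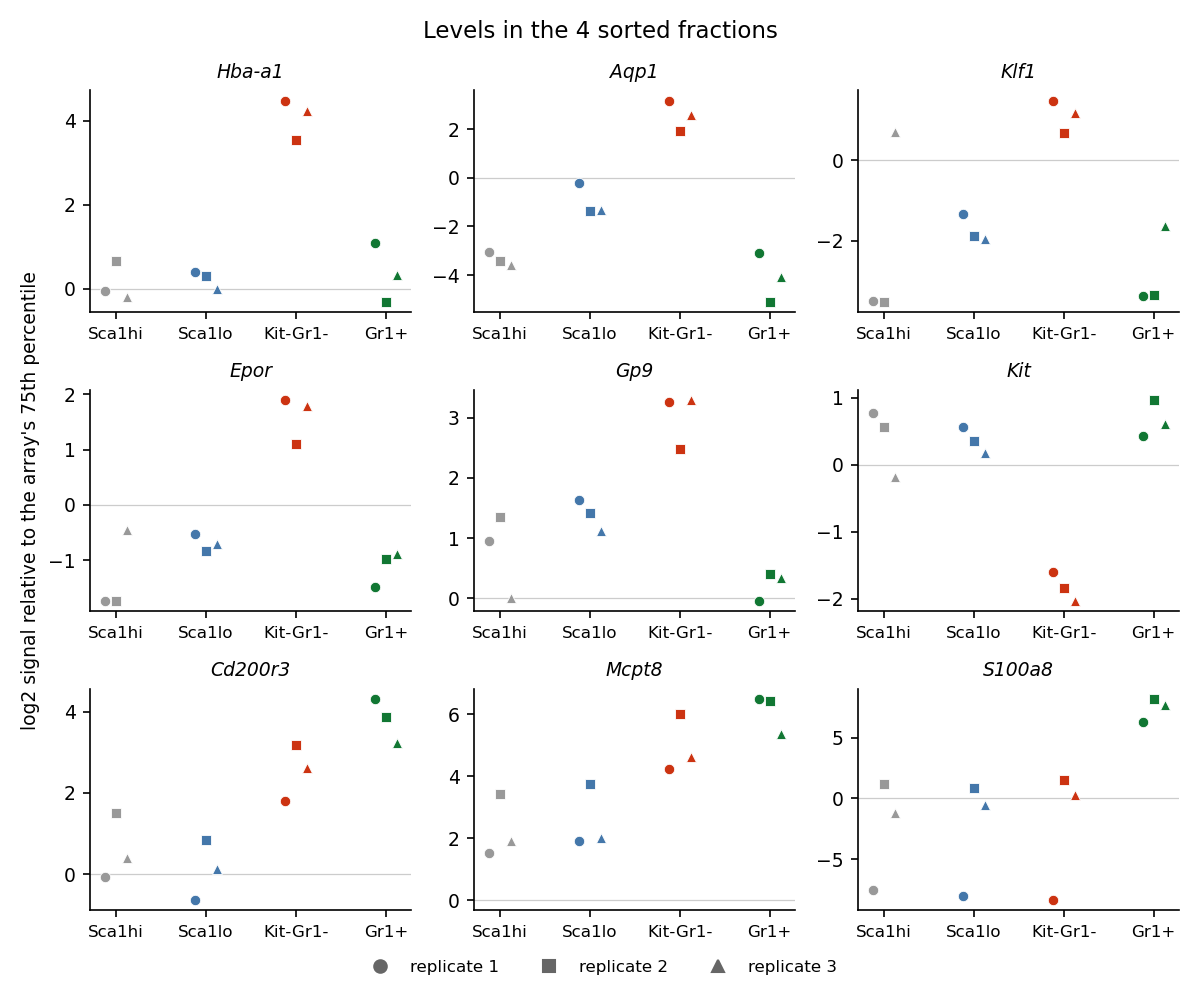
Log2 level relative to the array's 75th percentile (vertical axes, which differ between panels) of 9 genes in the 4 sorted fractions, with each symbol 1 array and its shape the replicate number. Hba-a1, Aqp1, Epor and Gp9 are highest in the 3 Kit-Gr1- samples and Kit is lowest there, while Cd200r3 and S100a8 are highest in Gr1+ cells and S100a8 is low in replicate 1 of the other fractions.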

How the data were processed

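Total RNA of 14 samples was amplified, labelled with Cy3 and hybridised to 1-colour Agilent mouse arrays, per the labels' protocols. The deposited scanner files hold the processed signal, a background-corrected fluorescence intensity, per spot, made with Agilent Feature Extraction 10.1.1.1 per the file headers. The deposited series values equal the log2 of that intensity (largest difference 5e-09). The headers name build mm8, and no probe coordinates are printed. Of 41174 probes 23374 were matched to a RefSeq symbol, and 17800 were not.

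For the 6 arrays, control and outlier spots were left out, spots of a probe were averaged, log2 values were scaled to the array's 75th percentile, and probes well above background on at least 3 arrays were kept. The probe with the highest mean stood for a gene. The groups were fitted with limma 3.58.1 (R 4.3.3; lmFit and eBayes with a trend, no covariate), with prior degrees of freedom of 6.15 and 4 residual ones. Fold changes come from these values, not from the deposited intensity alone. The script was tested on simulated data. An exact permutation test of 3 arrays against 3 cannot go below 0.1, so none is given. The number of arrays limits the precision.

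The genes named are the 10 largest increases and decreases that passed among genes with a symbol and a signal above background throughout their higher group, the gate antigens, Aqp1, Hba-a1, Epor and Kit, 9 lineage factors, and from each list the members that passed or, failing that, the largest differences. Other members given as values were chosen after their values were seen. The 26 gene lists and the comparison were chosen with earlier results of these data known. Alternatives were other scalings, the deposited log2 values, normexp on median signals (the mean signal was not used here), filters, blocks, array weights, the variance prior, all 14 arrays, probe means and leaving out each array. The promoter sequences are from RefSeq (GRCm38.p6). A few single-gene results are not reported here.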

Additional observations from a re-analysis of the deposited data

How the results depend on the processing

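The number of genes that passed was 128; it was 66 with quantile normalization, 281 with the slide as a fixed block, 196 as a random block, 333 with array weights, 4 without a trend in the variance prior and 0 with all 14 arrays in the fit, and 25 to 237 with 1 array left out. Other scalings, filters, probe means and normexp gave 90 to 178. With the replicate number as a block 294 passed; same-numbered arrays did not deviate together in every pair (correlations 0.2746, 0.1566 and -0.3141), and not every array correlated best with its own number, so the numbers were not taken as pairs. The count of genes apart by 2-fold or more was 598; it was 372 with the deposited values, 181 after normexp, 902 without the filter and 369 with the strict filter, and 410 to 2063 with 1 array left out. Of the 42 named genes that passed, 42 passed with the replicate block, 40 with the deposited values, 34 with array medians, 21 after quantile normalization and 2 without the trend. Calls that ended after quantile normalization included Akr1c18, Art4, Cpox, Gp5, Gp9, Stom and Tmod1. They also included Cd200r3, Il4, Mcpt2, Ms4a2 and Ccl3. Of 1440 single-gene comparisons with an alternative, 1164 kept direction and call, 235 lost the call, 17 gained it and 24 changed sign, none of these a gene that had passed. With array medians Bub1 was 0.02, Cebpa 0.05, Myb 0.08, Nop58 0.11, Spi1 0.03 and Ttk 0.08, and after quantile normalization Spi1 was 0.10 and Ttk 0.09. With array weights Cebpa was 0.44, Lcn2 1.16 and Ly6c1 0.47. With the slide as a fixed block Ebf1 was 0.02, Ly6a -0.06 and Ttk 0.21, and with the deposited values Ly6a was -0.09. With 1 array left out, Cebpa ran from -0.53 to 0.23, Lcn2 from -1.56 to 0.52, Ly6c1 from -1.49 to 0.08, Ly6a from -0.15 to 0.39 and Ttk from -0.51 to 0.02. The cause was not tested. Of 494 list medians under an alternative, 33 moved by more than the spread between arrays. Signals near background limit Camp, S100a8, Lcn2, Ebf1, Il7r, Ear6 and Tek, which were not well above background on every array.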

Other observations

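Some genes that passed belong to no list, and they were picked after their values were seen. Phlda3, Zmat3, Trp53inp1 and Psrc1 are known targets of the tumour suppressor p53. Phlda3 measured 1.61, 1.56 and 1.25 in Sca1lo cells against 2.87, 2.64 and 2.88 in Kit-Gr1- cells, and Zmat3 -0.34, -0.38 and -0.72 against 1.05, 0.92 and 1.49. The groups did not overlap for either gene. The 4 genes rose by 1.33 ± 0.14, 1.63 ± 0.18, 1.25 ± 0.17 and 1.15 ± 0.16 (limma, adjusted p = 0.0051, 0.00599, 0.0145 and 0.017). Sca1hi cells measured 2.38, 2.89 and 1.31 for Phlda3 and 0.60, 1.10 and -0.15 for Zmat3. For all 4 genes the Sca1hi samples overlapped the Kit-Gr1- samples, so the higher level was not particular to Kit-Gr1- cells. Phlda3 passed with any 1 array left out. Zmat3, Trp53inp1 and Psrc1 did not without Sca1lo replicate 3 (adjusted p = 0.0573 to 0.137), and Trp53inp1 and Psrc1 did not without Kit-Gr1- replicate 3 (0.0843 and 0.0879). Other genes linked to p53 did not pass: Cdkn1a measured 0.52 and Bbc3 0.99 ± 0.24.

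Single genes of the actin skeleton or of adhesion passed as well, in both directions, since the actin-associated Pdlim1 fell by 1.56 ± 0.20. Tpm4, a tropomyosin, measured -0.58, -0.20 and -0.26 against 1.43, 1.51 and 1.20, a rise of 1.73 ± 0.16 (adjusted p = 0.00182), and it passed with any 1 array left out. Vcl (vinculin) rose by 1.24 ± 0.18, Parvb (parvin beta) by 1.79 ± 0.23, Gsn (gelsolin) by 1.69 ± 0.29, Daam1 (a formin) by 1.19 ± 0.18 and Itgb2 (an integrin chain) by 1.08 ± 0.18. Further probes of Vcl and Parvb gave 0.37 and 0.58. These 5 did not pass without Sca1lo replicate 3 (adjusted p = 0.099 to 0.218) or without Kit-Gr1- replicate 3 (0.097 to 0.235). Gsn and Itgb2 also did not without Sca1lo replicate 1 (0.0568 to 0.0782) or Kit-Gr1- replicate 2 (0.117 to 0.12).

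The serine protease genes Cela1 and Hpn rose by 1.55 ± 0.16 and 1.46 ± 0.17 (adjusted p = 0.00438 and 0.00781) and passed with any 1 array left out, although another probe of Hpn gave -0.20. F10, coagulation factor X, measured 1.02, 1.95 and 1.45 against 3.20, 3.41 and 4.02 and rose by 2.07 ± 0.26. It did not pass without replicate 3 of either group. Deptor, an inhibitor of mTOR, measured 1.33, 1.00 and 1.00 against -0.31, -0.33 and -0.16 and fell by 1.37 ± 0.15 (adjusted p = 0.00471).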
